A study of Mus musculus with 3 samples.

Results

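The genes examined in a map of TBX5 binding in the fetal mouse lung were 9 transcription factor genes of mesenchyme: Tcf21, Osr1, Osr2, Prrx1, Prrx2, Nkx2-3, Barx1, Tshz2 and Tshz3. The map is a chromatin immunoprecipitation and sequencing (ChIP-seq) experiment on whole lungs of CD-1 mouse embryos, an outbred stock, at E14.5, a stage when the airways are branching. TBX5 was precipitated in 2 libraries, with 1 whole lung used for each, and 1 further library is input chromatin. No genetic change or treatment is named for any of the 3. Lung stands in every title, yet the tissue given as the source is heart for the input and for ChIP library 2. The data are 1 deposited list of 28381 peaks without a value per library, so neither the spread between the ChIP libraries nor the sequencing depth could be measured, and no test over libraries could be made. A peak was counted for a gene when its summit lay inside the gene body, or when the nearest end of a protein-coding gene, within 300 kb, was an end of that gene. By this rule 72 of the 28381 peaks belonged to the 9 genes, of 21631 protein-coding genes in all.

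TBX5 belongs to the T-box family of transcription factors and acts in heart, forelimb and lung mesenchyme, the connective and muscle-forming tissue that surrounds the airway epithelium and signals to it. TCF21 is a basic helix-loop-helix factor of the mesenchyme of lung, kidney and epicardium, and the OSR proteins are zinc-finger factors related to Odd-skipped of the fly. PRRX1 and PRRX2 are paired-related homeodomain proteins of limb and face mesenchyme, NKX2-3 and BARX1 are homeodomain factors of gut and stomach mesenchyme, and the TSHZ proteins are zinc-finger factors related to Teashirt of the fly. A peak reports where the antibody enriched DNA, not whether a gene nearby was active, so the label of these genes as mesenchymal factors could not be checked on expression here.

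Promoter sequence from RefSeq (build GRCm38.p6, the assembly of mm10) was matched for 7 of the 9 genes, all except Osr1 and Osr2. Peaks covered, wholly or in part, the promoter window of Tcf21 and of Tshz3, 2 of these 7. Across the protein-coding genes 3697 of 21045 windows, or 17.6%, were covered. The 250 bases before the start site of these genes are shown 5′ to 3′ on the strand of the gene, with bases under a peak in capitals, and those of Tshz2 are shown as the paralogue of Tshz3 whose window held no peak.
Tcf21, chr10:22820144-22820393, minus strand: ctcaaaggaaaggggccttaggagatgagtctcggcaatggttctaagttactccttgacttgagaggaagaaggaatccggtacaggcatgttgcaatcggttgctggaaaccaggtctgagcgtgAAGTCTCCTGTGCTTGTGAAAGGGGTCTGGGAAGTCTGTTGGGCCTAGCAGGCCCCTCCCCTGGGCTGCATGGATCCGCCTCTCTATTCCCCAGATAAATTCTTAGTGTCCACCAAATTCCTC
Tshz3, chr7:36697868-36698117, plus strand: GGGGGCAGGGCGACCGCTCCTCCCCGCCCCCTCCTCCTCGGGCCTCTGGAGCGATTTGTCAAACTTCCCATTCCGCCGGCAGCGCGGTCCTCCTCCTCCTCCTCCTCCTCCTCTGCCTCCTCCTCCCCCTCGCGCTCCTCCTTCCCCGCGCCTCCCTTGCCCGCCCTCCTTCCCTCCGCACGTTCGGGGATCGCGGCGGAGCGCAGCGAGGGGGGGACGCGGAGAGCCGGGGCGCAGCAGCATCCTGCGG
Tshz2, chr2:169632259-169632508, plus strand: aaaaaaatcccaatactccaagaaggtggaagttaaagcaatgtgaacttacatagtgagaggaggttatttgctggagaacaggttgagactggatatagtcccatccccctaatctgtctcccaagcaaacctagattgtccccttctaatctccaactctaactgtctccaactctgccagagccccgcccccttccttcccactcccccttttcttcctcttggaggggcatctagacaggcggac
The Tcf21 peak covered the 123 bases next to the start site, and its summit lay 73 bp upstream. The Tshz3 peak covered all 250 bases, and its summit lay further out, 520 bp upstream. The Tshz2 stretch was free of peaks, and the nearest summit lay 385 bp inside the gene. The 2 TSHZ promoters differed in composition, with 74% G and C and 27 CpG dinucleotides for Tshz3 against 48.8% and 2 for Tshz2, and the Tcf21 stretch held 52.4% and 5. The letters AGGTGT, the core of the sequence T-box factors bind, were searched on both strands over 300 bases, from 250 before the start site to 50 after it. They were in 0 of the 7 member windows and in 12.8% of all 21045. They stood in 11.2% of the windows covered by a peak and in 13.1% of those not covered. The longer AGGTGTGA, which contains them, was in 0 of the 7 and in 1.16% of all. The 7 windows are few, and 0 of 7 was not tested against the share over all windows. Sequence under peaks outside these windows was not searched, so these counts do not say whether such peaks hold the letters.

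TBX5 peaks were found at 7 of the 9 genes, and most belonged to Tshz2, Osr1 and Tcf21. Tshz2 had 25 peaks, Osr1 15, Tcf21 13, Tshz3 10, Prrx1 5, and Prrx2 and Barx1 2 each, while Osr2 and Nkx2-3 had 0. Tshz2, Osr1 and Tcf21 thus held 53 of the 72 peaks (73.6%). Among all protein-coding genes, 42.5% had a peak by the same rule. A strong peak, one of the 5000 with the highest −log10 q in the list (at least 21.4), was present at 6 of the 9 genes, where 13.1% of all protein-coding genes had one. These were Tshz2 (6 strong peaks), Tcf21 (4), Osr1 (3), Prrx1 (1), Barx1 (1) and Tshz3 (1). As many peaks as at Tshz2 or more were found at 35 protein-coding genes, Tshz2 included. The same count was 198 for Osr1, 293 for Tcf21, 536 for Tshz3, 1703 for Prrx1 and 4950 for Prrx2 and Barx1. The 9 genes were chosen with earlier results of this list known, so these counts describe them and support nothing further.

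The counts depend on how much sequence each gene can draw peaks from, here called its territory. It ran from 48.7 kb for Prrx2, closely flanked by Asb6 and Ptges, to 576.1 kb for Osr1 and 758.2 kb for Tshz2, which lie beside long stretches without protein-coding genes. Per 100 kb of territory the 9 genes together held 2.99 peaks (exact 95% Poisson interval 2.34 to 3.76), against 1.22 over all protein-coding genes. Intervals cover counting error only, and they treat peaks as independent although peaks lay close to each other. Tcf21 had the highest density of the 9, with 6.97 peaks per 100 kb (3.71 to 11.9), followed by Prrx2 with 4.11 (0.498 to 14.8) and Tshz2 with 3.30 (2.13 to 4.87). Prrx1 (2.71), Tshz3 (2.61), Osr1 (2.60) and Barx1 (2.23) lay within each other's intervals. Neighbouring genes in this order did not differ beyond their intervals, and the intervals of Prrx1, Prrx2, Barx1, Osr2 and Nkx2-3 included the average over all genes. Tshz2, with 25 peaks, therefore had a lower density than Tcf21 with 13, although their intervals overlapped.

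**Figure D1:**
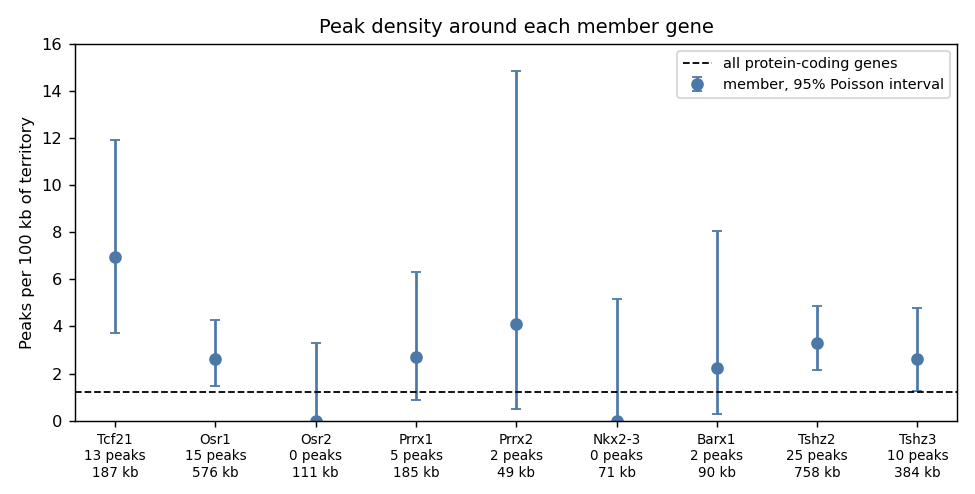
Peaks per 100 kb of territory (vertical axis) for each of the 9 genes, with exact 95% Poisson intervals for counting error as bars and the average of 1.22 over all protein-coding genes as a dashed line; peak counts and territory lengths stand under each name. Tcf21 sits highest at 6.97 and Osr2 and Nkx2-3 lie at 0.

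The fold enrichment of a peak is the ratio, as the authors' peak caller gave it, of signal at the summit over background around it. It is used here only to describe and rank peaks within the list. Over the 72 peaks it ranged from 3.26 to 91.4 with a median of 6.63 (95% interval of the median 6.13 to 8.81), against a median of 6.27 over all peaks. Of the 72, 20 reached 10-fold (27.8%, exact 95% binomial interval 17.9 to 39.6%), where 21.2% of all peaks did, and 15 (20.8%) were under 5-fold, against 23.8% of all peaks. Strong peaks made up 16 of the 72 (22.2%, exact 95% binomial interval 13.3 to 33.6%) and 17.6% of all peaks. Both intervals include the share over all peaks. By gene, the median fold was 8.01 for Tshz2, 7.10 for Tshz3, 6.60 for Osr1, 6.13 for Tcf21 and 4.56 for Prrx1, and within each of these genes the values spread over more than the distance between the medians.

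**Figure D2:**
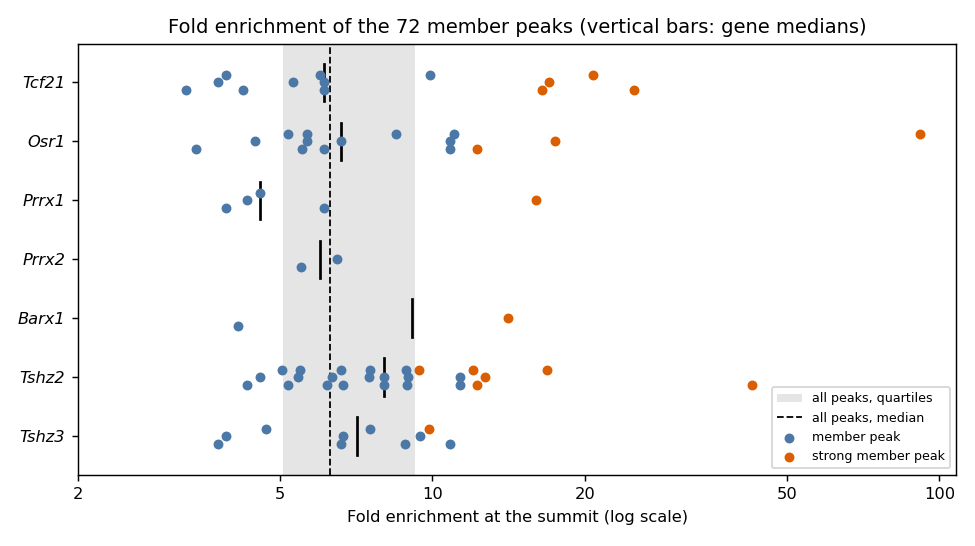
Fold enrichment at the summit (horizontal, log scale) of each of the 72 peaks by gene, strong peaks in orange, gene medians as vertical bars, with the quartiles (5.07 and 9.22) and median (6.27) of all peaks as a grey band and a dashed line. The Osr1 peak of 91.4-fold and the Tshz2 peak of 42.7-fold stand apart from the other peaks, which reach at most 25-fold.

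At Tcf21 the peaks fell into a cluster over the gene and a scattered group far upstream. The gene, on chromosome 10 from 22817263 to 22820143 and read from the minus strand, is 2.88 kb long. Within 10 kb of it lay 7 peaks whose summits spanned 7.59 kb, with folds from 3.26 to 20.7. The highest of these, 20.7-fold (chr10:22816085-22816709), lay 0.785 kb beyond the last base of the gene. The other 2 peaks on that side had folds of 6.13 and 9.89. The peak at the start site had 5.30-fold enrichment, and the peaks inside the gene, 0.518 and 1.99 kb downstream of the start, had 6.01-fold and 3.26-fold. At the start of the gene the enrichment was thus weaker than just past its last base. All 7 summits also lay inside Gm10824, an annotated lncRNA gene that spans Tcf21, so peaks of the pair cannot be told apart by position.

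The 6 remaining Tcf21 peaks lay upstream, in the 282.8 kb that separate the gene from Eya4. A peak at 48.6 kb (chr10:22868554-22868993), had 17-fold enrichment, and the one at 99.9 kb (chr10:22919817-22920270) 16.5-fold. The strongest Tcf21 peak lay 108 kb upstream (chr10:22927831-22928642), with 25-fold enrichment and rank 1069 in the list by −log10 q. These 3 were strong, and the 3 others upstream, at 37.6, 71.1 and 106 kb, were weak with 3.91, 6.13 and 3.77-fold. The downstream side, where Tbpl1 is the next protein-coding gene at 84.6 kb, held no Tcf21 peak farther than 2.97 kb from the gene. The territory of Tcf21 ended at 22774965 on that side and at 22961552 upstream, a longer reach. By the rule, peaks beyond these bounds could not be counted for Tcf21.

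The OSR pair had 15 peaks at Osr1 and 0 at Osr2. Osr1, on chromosome 12 from 9574442 to 9581500, had 15 peaks spread over 506.7 kb, 8 on the side of lower coordinates, 6 on the other side and 1 inside the gene. The table used gave no strand for Osr1, so its upstream side is not named here. Its 1 peak inside the gene was weak (3.41-fold), the next nearest summit lay 23.9 kb away (8.48-fold), and 11 of the 15 lay over 100 kb from the gene. The side of higher coordinates was empty for 158.8 kb and then held 6 peaks between 158.8 and 266.2 kb.

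The highest of the 72 peaks was the last of these, at chr12:9847024-9848600, 266 kb from Osr1. It had 91.4-fold enrichment and ranked the fifth in the list by −log10 q (rank 5 of 28381), and with a width of 1577 bp it ranked 13 by width. It exceeded the next highest fold at Osr1, 17.4 (chr12:9438602-9438929, 135.7 kb on the other side), by 5.24 times. The remaining strong Osr1 peak, of 12.3-fold, lay 233 kb away on that other side (chr12:9340946-9341203). For the 91.4-fold peak, the closest annotated gene of any kind was the snRNA gene Gm22845, 17.6 kb from the summit. A peak of 10.8-fold lay 5457 bp from the 91.4-fold summit, on the side of Osr1. Just beyond the 300 kb limit, at 321 kb from Osr1 (chr12:9901799-9902432), lay a peak of 45.7-fold with rank 101, which the rule left out, together with 2 weaker peaks at 334 and 343 kb (5.88 and 3.92-fold). The next protein-coding gene on that side, Nt5c1b, lies 788.5 kb from Osr1, so the nearest gene by distance is all that ties these peaks to Osr1.

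Osr2, on chromosome 15 from 35296098 to 35303305, had 0 peaks in a territory of 111.2 kb. The average density over all genes would give 1.36 peaks there, so 0 was within counting error of the average. The nearest summit lay 137.6 kb away at 7.07-fold and was assigned to Stk3, which lies on the side of lower coordinates. For the pair, 15 peaks in 576.1 kb thus stood against 0 in 111.2 kb, and the upper bound of the Osr2 density (3.32 per 100 kb) was above the Osr1 value of 2.60. Sites too weak to enter the list were not measured.

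The PRRX genes had 5 and 2 peaks, in territories of 184.6 and 48.7 kb. Prrx1, on chromosome 1 from 163245119 to 163315145 and read from the minus strand, had 5, of which the strong one lay past the end of the gene, 48.6 kb beyond its last base and 117 kb downstream of the start site (chr1:163196343-163196715, 16-fold). A peak of 3.91-fold lay 486 bp from it, and another of 4.31-fold a further 4.72 kb out. The start site in the promoter table lies within the annotated bounds of both PRRX genes. Inside Prrx1, a peak of 6.13-fold lay 33 kb downstream of the start site and one of 4.56-fold 0.942 kb downstream of it. Prrx2, on chromosome 2 from 30845064 to 30881251, had 2 peaks, both inside the gene, at 0.592 kb (5.50-fold) and 7.56 kb (6.49-fold) downstream of the start site. Neither Prrx2 peak was strong. Both PRRX genes thus had a peak within 1 kb downstream of the start site that was not strong. By −log10 q it ranked 22871 at Prrx1 and 14056 at Prrx2. A strong peak was present at Prrx1.

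The gut and stomach factors had 2 peaks between them. Both belonged to Barx1, on chromosome 13 from 48663036 to 48666507, and their summits lay 442 bp apart at 31.2 and 31.6 kb downstream of the start site. The outer one was strong, with 14.1-fold enrichment (chr13:48694486-48695073), and the inner one had 4.15-fold. No Barx1 peak lay inside the gene or at its start. Nkx2-3, on chromosome 19 from 43612325 to 43615892, had 0 peaks in 71.4 kb, where the average density would give 0.87. The summit nearest to Nkx2-3 lay 58.8 kb away with 3.66-fold enrichment and was assigned to Slc25a28.

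Tshz2 carried the most peaks of the 9, most of them inside its long body. The gene spans 440.2 kb of chromosome 2, from 169632509 to 170072751, on the plus strand, and 18 of its 25 peaks lay inside it, the other 7 upstream. The strongest lay 137.5 kb upstream (chr2:169494544-169495278), with 42.7-fold enrichment and rank 134 by −log10 q. Its summit was 72 bp from an end of the lncRNA gene Gm34112 and inside another lncRNA gene, Gm14249. A pair of strong peaks of 12-fold and 12.3-fold lay 211 and 208 kb upstream, 3211 bp apart. Of the 3 strong peaks inside the gene, 1 lay 0.385 kb downstream of the start site (9.42-fold), 1 at 16.8 kb (12.7-fold) and 1 at 151 kb (chr2:169782936-169783724, 16.9-fold). The start-site peak shows that rank and fold can differ: its −log10 q of 38.4 was above the 32.4 of the 12-fold peak upstream.

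Inside Tshz2 the peaks were not spread evenly. From the start site to 231 kb into the gene lay 16 peaks, then none for 189.1 kb, and the last 2 lay 420 and 427 kb from the start, near the end of the gene, with 7.54 and 6.67-fold. Of the 25 peaks, 2 were under 5-fold, 16 between 5 and 10-fold and 7 at 10-fold or more. The 14190 peaks ranked highest by −log10 q, 50% of the list, included 39 of the 72 (54.2%, exact 95% binomial interval 42 to 66%). They held 17 of the 25 Tshz2 peaks, beside 6 of 10 at Tshz3, 7 of 15 at Osr1 and 5 of 13 at Tcf21.

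Tshz3, on chromosome 7 from 36698118 to 36773553, had 10 peaks: 1 just upstream of the start site, 3 inside the gene and 6 downstream of it. The peak at the start site (chr7:36697319-36698256) was 938 bp wide, had 9.86-fold enrichment and was the 1 strong peak of the gene. Inside, peaks lay 1.10, 8.94 and 11.2 kb downstream of the start, with 3.92, 10.8 and 6.67-fold. The predicted protein-coding gene Gm36722 overlaps the start of Tshz3 by 105 bp, and the rule assigned these 4 peaks to both genes. Past the gene, 1 peak lay 13.5 kb beyond its last base (6.60-fold), and after 127.5 kb without a peak 5 lay between 141 and 182 kb, with folds from 3.77 to 9.45. The TSHZ paralogues thus shared a strong peak within 1 kb of the start site. Strong peaks far upstream were seen at Tshz2, and the far peaks of Tshz3 lay downstream and were all under 10-fold. The rule itself limits this contrast of sides. The territory of Tshz3 began at 36662303, inside Gm36722, so peaks farther upstream could not be counted for Tshz3. That of Tshz2 began at 169332509, at the 300 kb limit.

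**Figure D3:**
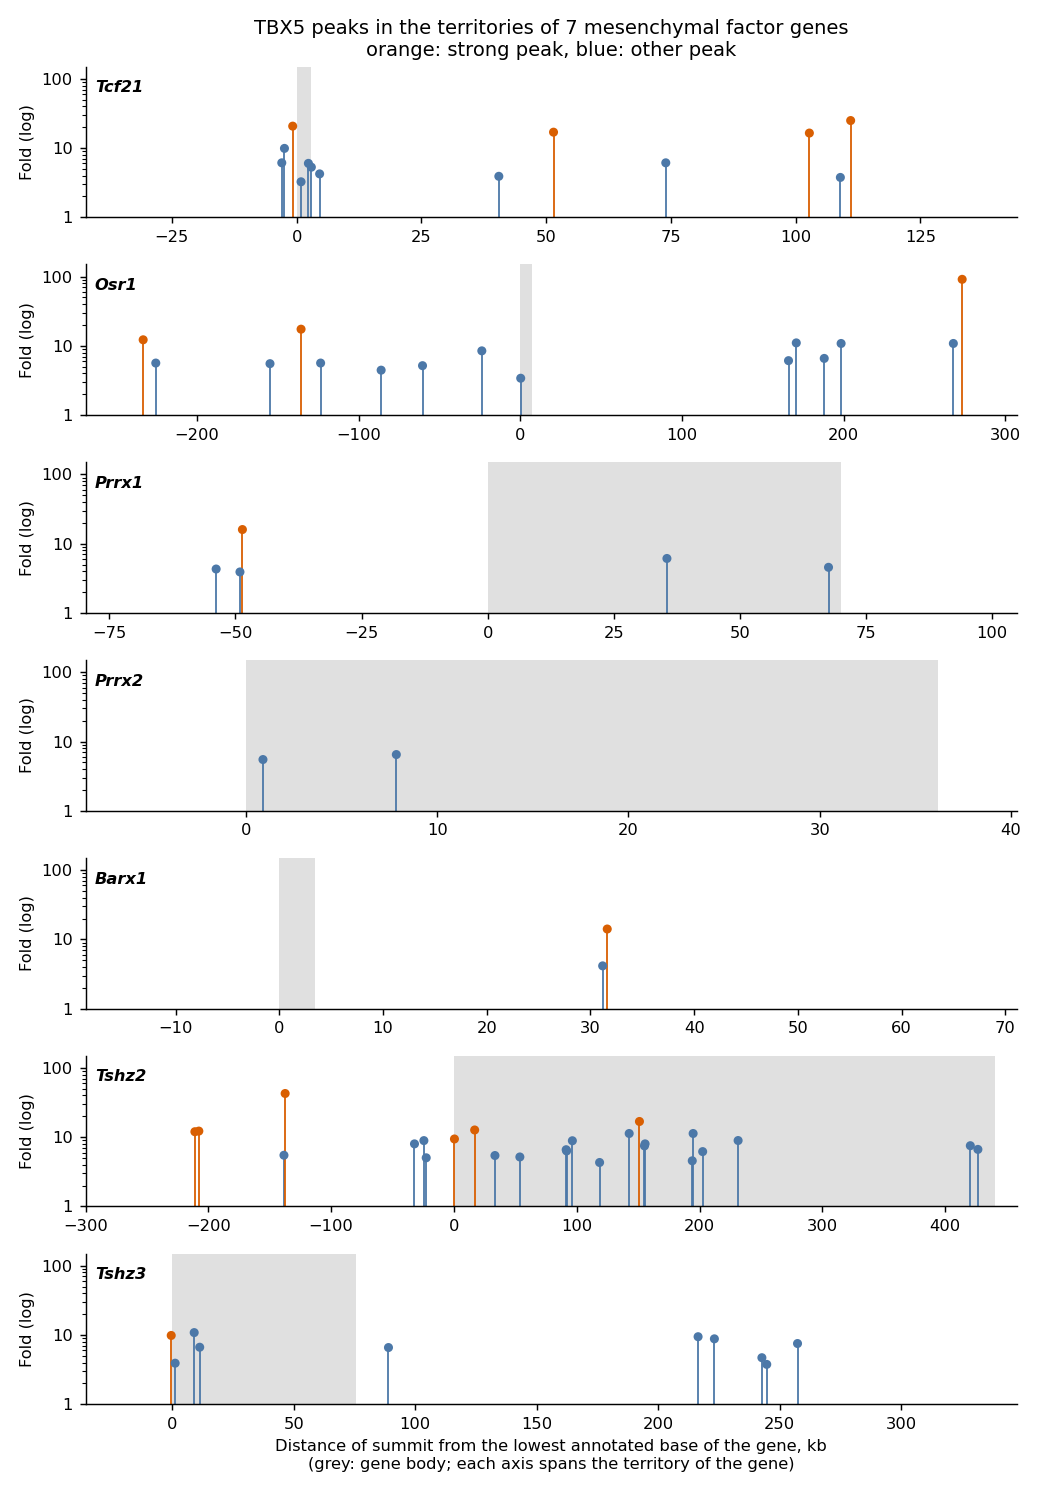
Fold enrichment (vertical, log scale) of every peak of the 7 genes with a peak against the distance of its summit from the lowest annotated base of the gene in kb; grey marks the gene body, orange strong peaks and blue other peaks, and each axis spans the territory of the gene. Tcf21 shows a cluster over the gene and strong peaks at a distance, Osr1 a peak of 91.4-fold near the edge of its territory, and Tshz2 peaks through the first part of its body.

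Across the 9 genes, peaks lay over 100 kb from gene ends more often than within 1 kb of them, as they did over all peaks. Summits within 1 kb of an end of any protein-coding gene numbered 9 of 72 (12.5%, exact 95% binomial interval 5.88 to 22.4%), against 17.6% of all peaks, and the interval includes that share. Summits over 100 kb from every such end numbered 31 of 72 (43.1%), where 23.9% of all peaks did. They came from 4 genes, Tshz2 (13), Osr1 (11), Tshz3 (5) and Tcf21 (2). The rule itself bears on this share, since its 300 kb limit was set for the gene-poor surroundings of Osr1. Of the 16 strong peaks, 8 lay over 100 kb from every end, at Tshz2 (4), Osr1 (3) and Tcf21 (1), and 29.3% of all strong peaks did so. For this share and for the 31 of 72 no interval was calculated. Whether either share differs from that over all peaks beyond counting error was therefore not assessed. Another summit lay within 1 kb of 16 of the 72 (22.2%, exact 95% binomial interval 13.3 to 33.6%), against 16.9% of all peaks, which the interval includes. They lay at Tshz2 (4 pairs), Tcf21 (2), Prrx1 (1) and Barx1 (1). Summits inside an annotated lncRNA gene numbered 13 (18.1%, exact 95% binomial interval 9.98 to 28.9%), of which 7 were the Tcf21 peaks in Gm10824, and 12.2% of all summits lay in one, a share inside that interval.

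Relatives of these genes had 30 peaks in all. Of 18 genes of the same families, 9 had a peak and 5 a strong peak (27.8%, exact 95% binomial interval 9.70 to 53.5%), with 1.02 peaks per 100 kb. Tshz1, the third TSHZ gene, had 9 peaks (2 strong), and Msc, a close relative of Tcf21, had 7 (3 strong). Among 17 other factors of visceral and body wall mesenchyme, 15 had a peak and 8 a strong peak (47.1%, 23 to 72.2%). The homeodomain factor gene Hlx, active in visceral mesenchyme, had the most of these with 22 peaks (5 strong), and Nr2f2, a nuclear receptor gene, had 17 (2 strong).

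In other families of mesenchymal factors the shares could not be told from that of the 9 genes. A strong peak was present at 3 of 5 forkhead genes (Foxf1, Foxf2, Foxl1, Foxc1 and Foxc2), 4 of 7 TALE homeodomain genes of the Meis and Pbx families and 5 of 6 genes of the Zeb, Snai and Twist families, beside 6 of the 9 genes described here. Their exact 95% binomial intervals, 14.7 to 94.7%, 18.4 to 90.1%, 35.9 to 99.6% and 29.9 to 92.5% in that order, overlapped widely. Peak density was 5.25 per 100 kb for the forkheads, 2.96 for the TALE genes and 4.07 for the Zeb, Snai and Twist genes, against 2.99 here. Among marker genes of the tissues named in the labels, 10 of 10 for lung mesenchyme had a peak and 7 a strong peak, against 4 and 3 of 10 for cardiac muscle and 6 and 4 of 10 for lung epithelium. Per 100 kb of territory these lists held 4.63, 2.0 and 0.939 peaks, with territories of 2546.9, 499.8 and 2450.1 kb. Of the 118 lung mesenchyme peaks, Meis1 held 33 and Tbx5 itself 30, so 2 genes weigh heavily in that density. The average over all genes was 1.22. Exact 95% binomial intervals for a strong peak were 34.75 to 93.3%, 6.67 to 65.25% and 12.2 to 73.8% in that order. They overlapped. The shares over all 21631 genes were 42.5% for any peak and 13.1% for a strong one. The intervals for cardiac muscle and lung epithelium include this 13.1%, and that for lung mesenchyme does not. These lists were chosen with earlier results of this peak list known, and the genes in a list are not replicates. Meis1 and Foxf1 of the lung mesenchyme list also stand in the TALE and forkhead lists. The intervals therefore describe the lists and support nothing further. Peaks do not report expression, so these counts do not check the tissue. Whether material labelled heart contributed to the list was not tested.

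**Figure D4:**
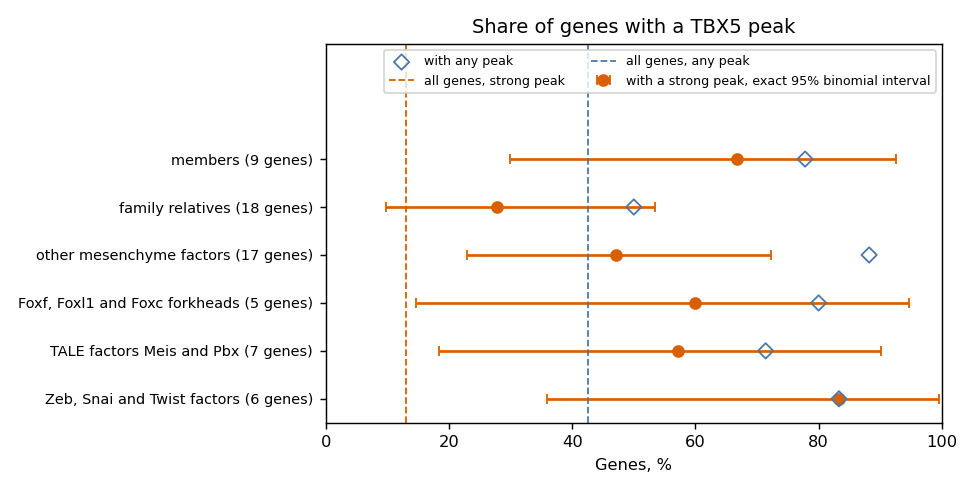
Share of genes (horizontal, in %) with any TBX5 peak (open diamonds) and with a strong peak (orange, with exact 95% binomial intervals) in the 9 genes, called members, and 5 other lists; dashed lines give the shares over all 21631 protein-coding genes, 42.5% and 13.1%. The 9 genes stand at 77.8% and 66.7%, and the intervals of all lists overlap.

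The assignment to genes rests on distance along the chromosome alone. When lncRNA and other annotated genes could also claim a peak, 32 peaks and 3 genes with a strong peak were left. Osr1 then had 1 peak in place of 15, Tcf21 4 in place of 13, Prrx1 2 in place of 5, Tshz3 5 in place of 10 and Barx1 0 in place of 2. The territories were smaller too, and the density was 3.63 peaks per 100 kb, against 2.99 by the main rule. Shares over all genes were not counted in this setting. With a limit of 100 kb Osr1 had 4 peaks and Tshz3 5.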

How the data were processed

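TBX5 ChIP-seq of E14.5 CD-1 mouse lung comprised 2 ChIP libraries and 1 input library, grouped by title. Per the submitters' processing notes, Bowtie2, SAMtools and MACS2 were used with mm10. For their versions and settings, for merging of replicates and for the role of the input, a statement was not found in those notes or the labels. The authors deposited 1 peak list without a header, in the layout of MACS2, and the units come from that layout and the values. Deposited by the authors for each peak were a fold (ratio of signal at the summit to local background), a −log10 q at the summit, and a score. The deposited score equalled the integer part of 10 times the −log10 q in 98.8% of peaks. Fold and −log10 q take few distinct values: 96% of peaks share both with another peak, and ties in rank were broken by list order. At the threshold for strong peaks 50 peaks were tied, 0 of them a member's. Depth is unknown, so no precision beyond counting error could be given.

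Starts were made 1-based and summits taken as start plus the deposited offset. Gene bounds of 21631 protein-coding genes on the autosomes and X came from RefSeq GRCm38.p6, without exons, and strand and start sites from its promoter table. Peaks were assigned with Python 3.11.15, pandas 2.3.3 and scipy 1.17.1. The assignment was run on simulated summits placed inside gene bodies only, so assignment by nearest gene end was not tested in this way. Exact 95% intervals were binomial for shares and Poisson for densities, and the interval of a median used order statistics. The genes, lists and limit were chosen with earlier results of these data known. All 9 genes were named, with each strong peak and the strongest peak of each, and in other lists at most the 2 genes with the most peaks. With 1 list there is no pattern across samples, so no gene was named for a like pattern. Alternatives were other distance limits, assignments, competing genes, peak subsets, thresholds, windows and the peak midpoint.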

Additional observations from a re-analysis of the deposited data

How the results depend on the processing

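Of the 64 alternative values of the 7 summary results, 53 stayed within 1.5 times the reported count or inside the reported interval. Some of these could not change. The 5000 strong peaks all lie among the 14190 ranked highest by −log10 q, so that subset kept the 16 strong peaks at 6 genes. With a limit of 100 kb there were 9 strong member peaks in place of 16. When all annotated genes competed, there were 32 member peaks, 5 strong ones, 3 genes with a strong peak, and 28.1% of member peaks within 1 kb of a gene end. The density of member peaks was then 3.63 per 100 kb. The 14190 peaks ranked highest by −log10 q included 39 member peaks, 1.62 per 100 kb, with a median fold of 10.8 (9.23 over all 14190). The density of 1.22 over all genes is for the whole list and is not comparable with this 1.62. Its match for the subset was not calculated. Counting the 1000 highest peaks as strong left 2 strong peaks at 2 genes, and counting the 10000 highest gave 29. With the 5000 peaks of highest fold as strong there were 16, at 5 genes. Of the 72 alternative counts for single genes, 14 differed by more than 1.5 times. The number of genes with a peak stayed within 1.5 times 7 under every assignment and subset tried. No paired analysis was possible because the list holds no value per library, and for the same reason no replicate could be left out. The number of reads behind each peak is unknown, so absence from the list is not absence of binding.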
